A study of Mus musculus with 29 samples.

Results

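Ribosome-bound RNA of astrocytes was compared with ribosome-bound RNA of microglia. The members were chosen from the sample labels as every positive fraction of the series, which gave 3 libraries of Aldh1l1-NuTRAP mice (mice 290, 293 and 294) and 6 of Cx3cr1-NuTRAP mice (mice 155, 192, 194, 209, 210 and 277), 9 of the 29 libraries in all. Both groups carried 1 floxed NuTRAP allele, which after cre recombination tags the ribosomal protein L10a with EGFP (and the nucleus with biotin and mCherry). In Aldh1l1-NuTRAP mice (Aldh1l1-cre/ERT2+/wt; NuTRAP flox/wt) the tamoxifen-inducible cre is driven by Aldh1l1, and in Cx3cr1-NuTRAP mice (Cx3cr1-cre/ERT2+/wt; NuTRAP flox/wt) by Cx3cr1, where the cre is inserted in the gene itself. All mice received tamoxifen by intraperitoneal injection on 5 consecutive days at about 3 months of age, and males and females were used. EGFP-tagged polysomes were then pulled from a brain homogenate with an antibody to GFP (translating ribosome affinity purification, TRAP). The RNA left behind is the negative fraction. Each line was 1 cre driver with its own mice, so cell type cannot be told apart from line, nor can the interval between tamoxifen and harvest, which the study describes as longer for Cx3cr1-NuTRAP mice (several weeks) than for the Aldh1l1-NuTRAP mice of its imaging and cytometry.

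Astrocytes take up glutamate, potassium and glucose, store the glycogen of the brain, make glutamine, lactate and cholesterol for neurons, and stem from neural progenitors. Microglia are macrophages of yolk sac origin that survey the tissue, engulf debris through receptors of innate immunity, and depend on the CSF1 receptor and on transforming growth factor beta. TRAP reports the messages that sit on the ribosomes of the recombined cells, together with messages of other cells that stick to the beads. Because the sample is bulk RNA, a lower value can come from fewer captured cells or from less RNA per cell, and these cannot be told apart.

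The 4 defining genes followed the labels. Gfap (chr11:102887336-102897200, mm10), the intermediate filament of astrocytes, had 2617, 2820 and 2659 CPM (read counts scaled to library size by the trimmed mean of M values, TMM) in Aldh1l1-NuTRAP mice 290, 293 and 294. In the Cx3cr1-NuTRAP positive fractions Gfap ranged from 147 to 222 CPM (median 193). Aldh1l1 (chr6:90550848-90599171) had 591, 669 and 615 CPM against 47.7 to 76.6 CPM (median 65.2). C1qa (chr4:136895916-136898844), a chain of complement C1q made by microglia, had 12.5, 4.23 and 4.98 CPM against 376 to 943 CPM (median 540). Cx3cr1 (chr9:120048683-120068296), the fractalkine receptor, had 15.8, 5.06 and 6 CPM against 180 to 419 CPM. No library of one line reached the range of the other for any of the 4 genes, and C1qa and Cx3cr1 were further apart without mouse 290 (log2 fold change -6.98 and -5.54, against -6.36 and -4.88 with it). From here on, 3 values separated by commas are CPM in mice 290, 293 and 294 in that order, and Cx3cr1-NuTRAP values are the lowest, the median and the highest of 6 mice. Levels are never compared between genes, since CPM is not corrected for length.

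Total gene counts were 11910720 to 22308906 in the Aldh1l1-NuTRAP and 15486534 to 19831159 in the Cx3cr1-NuTRAP positive fractions. The summed CPM of 8 astrocyte markers was 14701 to 17450 against 1504 to 2272, and that of 8 microglia markers 69.9 to 141 against 2278 to 5782. Transcripts of other cells also differed. The 14 neuronal markers summed to 3449 to 4037 CPM in Aldh1l1-NuTRAP and to 8920 to 11781 CPM in Cx3cr1-NuTRAP mice, all 14 called higher in the latter, although only 1 was above the negative fraction of its own mouse in all 6 Cx3cr1-NuTRAP mice. Of 10 oligodendrocyte markers 9 were higher in Cx3cr1-NuTRAP (1373 to 1644 against 1333 to 3358 CPM), with the exception of Cnp, but 0 of the 9 were above the negative fraction in all 6 mice and 8 were below it in all 6. The 6 choroid plexus markers summed to 3367 to 4001 against 214 to 949 CPM and all 6 were higher in Aldh1l1-NuTRAP. All 7 markers of border-associated macrophages were higher in Cx3cr1-NuTRAP (3.08 to 5.17 against 68.2 to 238 CPM). Sums for oligodendrocyte precursors were 38.9 to 41.9 against 51.9 to 83.6 CPM, for endothelial cells 94.5 to 138 against 113 to 218, for pericytes 109 to 129 against 70.8 to 121, for ependymal cells 67.4 to 109 against 15.7 to 30.9 and for erythrocytes 44.8 to 158 against 40 to 648. None of the monocyte and neutrophil markers (0.813 to 6.46 against 1.23 to 4.44 CPM) or lymphocyte markers (0.661 to 4.58 against 1.51 to 6.14 CPM) passed the count filter. The part of these cells in the results below was not tested.

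**Figure D1:**
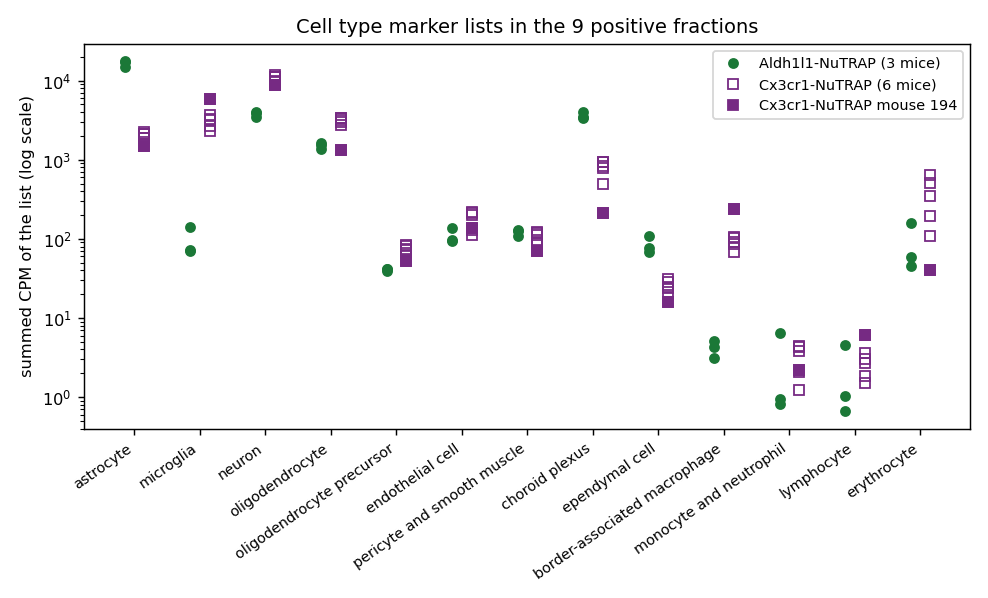
Summed CPM of cell type marker lists (log axis) in each of the 9 positive fractions, 1 point per mouse, Aldh1l1-NuTRAP (n = 3, circles) and Cx3cr1-NuTRAP (n = 6, squares, mouse 194 filled). Astrocyte sums lie at 14701 to 17450 against 1504 to 2272 CPM, microglia sums at 69.9 to 141 against 2278 to 5782 CPM, and neuronal, choroid plexus and border-associated macrophage sums also separate the lines.

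A pair of libraries stood apart. Cx3cr1-NuTRAP mouse 194 had the highest microglial sum, 5782 CPM where the other 5 mice had 2278 to 3693, and the lowest oligodendrocyte and choroid plexus sums. Aldh1l1-NuTRAP mouse 290 had the lowest total and relatively more RNA of short genes: in 5 equal groups of genes by exonic length, from the shortest to the longest, its median log2 difference from the mean of mice 293 and 294 was 0.44, 0.08, -0.12, -0.25 and -0.41. The median log2 fold change between the lines went the same way over these groups (0.34, 0.11, -0.09, -0.20 and -0.40). Xist was at 340 CPM in mouse 290 and 1445 to 3020 CPM in mice 155, 192 and 194. It was at 2.24 to 3.18 CPM in the other 5 mice, so the sexes were mixed within both lines. The labels do not give the sex of a mouse. Mouse 290 was the only Aldh1l1-NuTRAP mouse with Xist above 100 CPM. Where a result changes without it, gene length and sex cannot be told apart.

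Of 13676 genes with over 20 counts in every library of at least 1 line, 8718 (63.7%) differed between the positive fractions at an adjusted p under 0.05 (edgeR quasi-likelihood test, Benjamini-Hochberg). Of these, 4188 genes (30.6%) were higher in Aldh1l1-NuTRAP and 4530 (33.1%) in Cx3cr1-NuTRAP. By more than 5-fold, 568 genes (4.15%) were higher in Aldh1l1-NuTRAP and 387 (2.83%) in Cx3cr1-NuTRAP, and the ranges of the 3 and 6 mice did not overlap for 565 and 383 of them. The negative fractions of the same 2 lines differed in 2 and 5 of these genes by this test, in a fit that also held the positive fractions. The median log2 fold change over all tested genes was -0.08 (positive values mean higher in Aldh1l1-NuTRAP), and it moved to -0.39 when libraries were scaled by total counts without TMM, under which 2875 genes were higher in Aldh1l1-NuTRAP and 6312 in Cx3cr1-NuTRAP. Without mouse 290 the counts were 4052 and 4302 (563 and 413 over 5-fold), and without mouse 194 they were 4104 and 4354 (550 and 356 over 5-fold). Without the 4 libraries with Xist above 100 CPM, a choice made after seeing the data, they were 4773 and 4852 (566 and 402 over 5-fold). P-values measure the spread between mice.

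**Figure D2:**
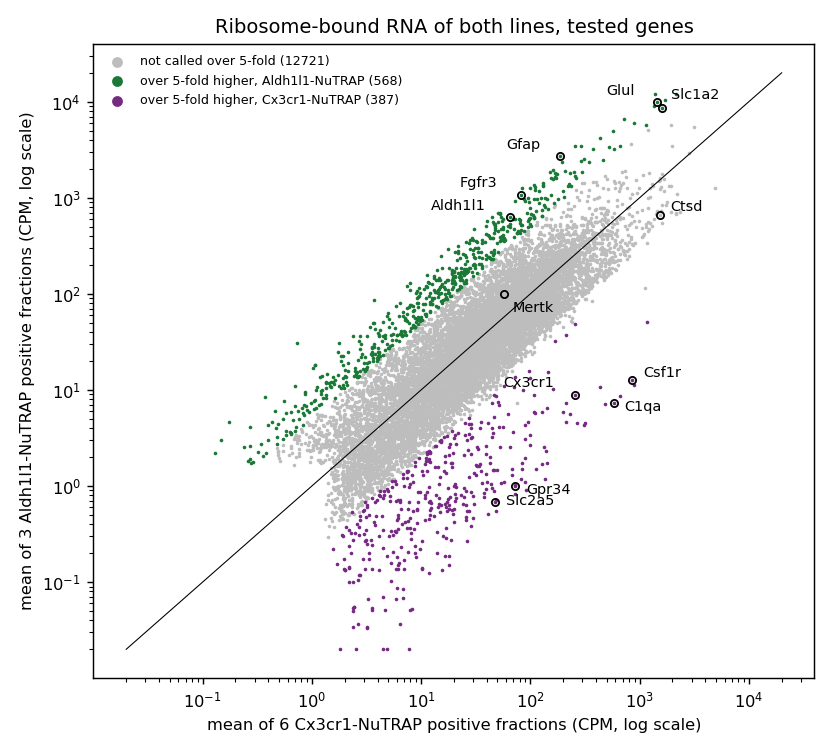
Mean CPM of each of the 13676 tested genes in the Cx3cr1-NuTRAP (x axis, n = 6) and Aldh1l1-NuTRAP (y axis, n = 3) positive fractions, both on log axes, with genes at 0 in every Aldh1l1-NuTRAP library drawn along the bottom. The 568 genes over 5-fold higher in Aldh1l1-NuTRAP, among them Gfap, lie above the diagonal, and the 387 over 5-fold higher in Cx3cr1-NuTRAP, among them C1qa, lie below it.

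Higher in one line did not always mean above the background of that line. Of the 4188 genes higher in Aldh1l1-NuTRAP, 3998 (95.5%) were above the negative fraction of the same mouse in 3 of 3 mice. Of the 4530 genes higher in Cx3cr1-NuTRAP, 895 (19.8%) were above it in 6 of 6 mice, a stricter count than 3 of 3, and 524 were below it in every mouse. By the mean ratio over mice, 4166 of the 4188 and 2414 of the 4530 were above the negative fraction. For genes over 5-fold apart, 567 of 568 and 354 of 387 were above it in every mouse, and 568 and 374 by the mean ratio. The median log2 fold change was -1.72 for the 895 genes and -1.06 for the other 3635. Each ratio to the negative fraction shares its positive library with the fold change, so these counts are a description. When the lines were compared on the ratio of positive to negative fraction, 3417 of the 4188 and 3872 of the 4530 genes were called in the same direction. A Cx3cr1-NuTRAP gene is therefore given below with its mean log2 ratio to the negative fraction where that ratio is near or below 0. The lower level of a gene could also lie below the negative fraction of its own line. Mean log2 ratios in Cx3cr1-NuTRAP were -0.32 for Gfap and -0.23 for Glul, though 0.56 for Idh2, and in Aldh1l1-NuTRAP -2.6 for C1qa. A fold is thus a difference between pulldowns, and its lower level need not come from the labelled cells.

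**Figure D3:**
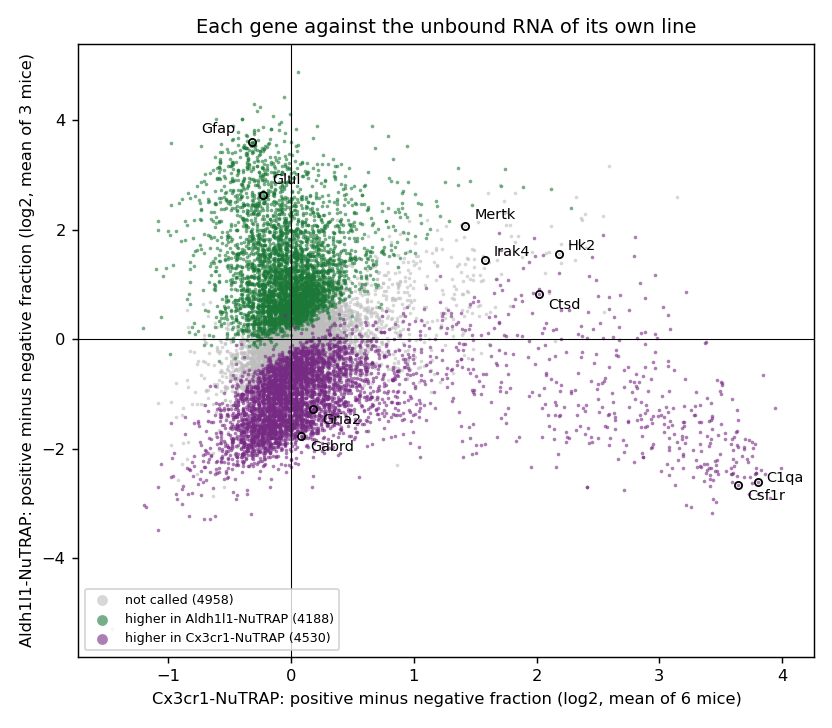
Mean log2 ratio of positive to negative fraction in Cx3cr1-NuTRAP (x axis, n = 6) and Aldh1l1-NuTRAP mice (y axis, n = 3) for the tested genes, coloured by call. Of the 4530 genes higher in Cx3cr1-NuTRAP 895 lay above 0 in every Cx3cr1-NuTRAP mouse, and of the 4188 higher in Aldh1l1-NuTRAP 3998 lay above 0 in every Aldh1l1-NuTRAP mouse.

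Genes were next described by 29 lists of pathways and families. In metabolism, astrocyte ribosomes held more of the messages for fatty acid oxidation and ketone bodies (36 of 44 tested genes higher in Aldh1l1-NuTRAP, 4 higher in Cx3cr1-NuTRAP, median log2 fold change 1.71), amino acids and one-carbon units (48 and 13 of 69, median 1.56), glycogen (15 and 2 of 22, median 1.28), cholesterol synthesis (24 and 1 of 27, median 1.23) and glutathione and detoxification (43 and 6 of 65, median 1.08). Pyruvate metabolism and the citric acid cycle had 23 and 3 of 34 (median 0.64). These medians stood beside -0.08, and the counts beside shares of 30.6% and 33.1%, for all tested genes. Of 257 solute carriers 96 were higher in Aldh1l1-NuTRAP and 97 in Cx3cr1-NuTRAP (median -0.10), beside 30.6% and 33.1% of all tested genes.

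**Figure D4:**
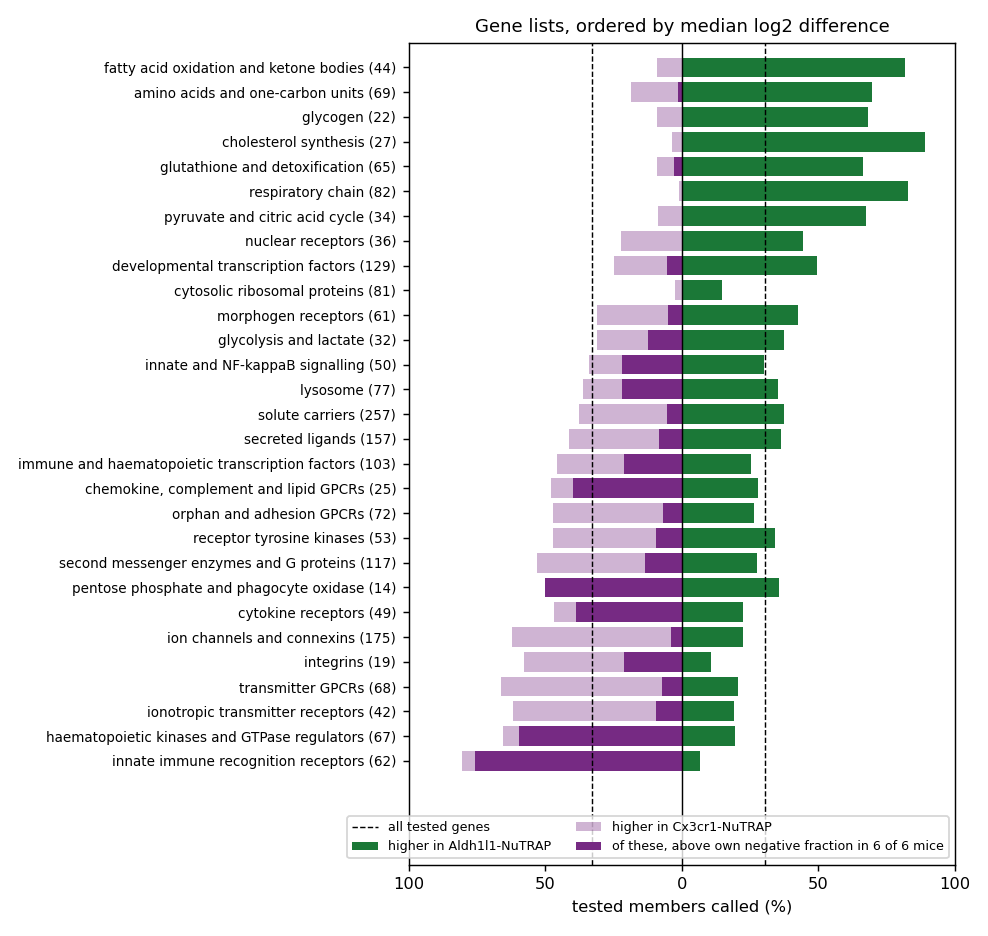
Share of tested members (number in brackets) of each of the 29 lists called higher in Aldh1l1-NuTRAP (right, green) or in Cx3cr1-NuTRAP (left, light purple, with those above their own negative fraction in all 6 mice in dark purple), ordered by median log2 fold change, with dashed lines at the shares of all 13676 genes (30.6% and 33.1%). Fatty acid oxidation (36 of 44 higher in Aldh1l1-NuTRAP) is at the top and innate immune recognition receptors (50 of 62 higher in Cx3cr1-NuTRAP) at the bottom.

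Fatty acids enter mitochondria through carnitine palmitoyltransferase 1A. Its gene Cpt1a was at 107, 181 and 162 CPM in astrocytes and at 20.5, 23.1 and 27.6 CPM in Cx3cr1-NuTRAP, a 6.45-fold difference (log2 2.69 ± 0.16 SE, adjusted p = 1.73e-07). Hadhb, a subunit of the trifunctional protein of beta-oxidation, was at 286, 302 and 281 CPM against 55.5, 70.8 and 76.7. The groups did not overlap for either gene. Acsbg1, an acyl-CoA synthetase, was 9.84-fold, Acot11, an acyl-CoA thioesterase, 10.3-fold, and Ppara, the nuclear receptor that drives genes of fatty acid oxidation, 8.99-fold higher in astrocytes (Ppara 22, 47.2 and 42.3 against 3.15, 4.48 and 4.62 CPM). In the other direction were the acyl-CoA synthetases Acsl5 (3.12-fold) and Acsl1 (2.27-fold) and the neuronal isoform Cpt1c (1.99-fold). In Cx3cr1-NuTRAP their mean log2 ratios to the negative fraction were 0.18, -0.07 and 0.17.

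Glycogen genes moved with regulators as well as enzymes. Ppp1r3c, which brings protein phosphatase 1 to glycogen, was at 504, 509 and 508 CPM against 31.6, 40 and 45.1, a 12.8-fold difference (log2 3.68 ± 0.12, adjusted p = 8.75e-09). Pygb, brain glycogen phosphorylase, was at 980, 1396 and 1172 CPM against 173, 203 and 216 (5.88-fold). A further targeting subunit, Ppp1r3d, was 8.19-fold and Phkg1, the catalytic subunit of phosphorylase kinase, 7.68-fold higher. Of the same family, Ppp1r3g, which was on no list, was at 112, 139 and 139 CPM against 5.86, 7.92 and 10.2 (16.3-fold). Both genes of the list that were higher in Cx3cr1-NuTRAP were close to the background of that line. Stbd1, a glycogen-binding protein, and Phka2, a regulatory subunit of phosphorylase kinase, had mean log2 ratios to the negative fraction of 0.10 and 0.46. The call of Phka2 (log2 -1.14, adjusted p = 0.0246) was lost at a similar fold without mouse 290 (log2 -1.16, adjusted p = 0.0739) and without mouse 294 (log2 -1.04, adjusted p = 0.086). It was lost at a smaller fold without the 4 libraries with high Xist (log2 -0.37, adjusted p = 0.0628).

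Of 32 genes of glycolysis and lactate, 12 (37.5%) were higher in Aldh1l1-NuTRAP and 10 (31.2%) in Cx3cr1-NuTRAP (median 0.16), shares near the 30.6% and 33.1% of all tested genes. Aldoc, the brain aldolase, was at 5931, 5857 and 6053 CPM in astrocytes against 647, 897 and 1089 (6.64-fold, adjusted p = 1.24e-07). The glucose transporter Slc2a1 (150, 175 and 159 against 47.8, 59.3 and 76.7 CPM, 2.67-fold), the lactate transporter Slc16a1 (2.55-fold) and lactate dehydrogenase B, Ldhb (2.16-fold), were also higher in astrocytes. Microglial ribosomes instead held Slc2a5, the fructose transporter GLUT5, at 30.9, 43.9 and 78.2 CPM against 0.995, 0.605 and 0.457, a 73.0-fold difference (log2 -6.19 ± 0.42, adjusted p = 4e-07). Hexokinase 3, Hk3, went with it (29.1-fold, 8.7, 16.6 and 29.7 against 0.895, 0.275 and 0.661 CPM). Hexokinase 2, Hk2, was at 25.3, 12.7 and 38.6 CPM against 29.7, 37.1 and 60, with overlapping groups (log2 -0.65 ± 0.32, adjusted p = 0.0904). This call turned with the library left out and with scaling (without mouse 294, -1.09, adjusted p = 0.0153; total counts, -0.96, adjusted p = 0.0174; all 29 libraries in 1 fit, adjusted p = 0.0228).

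At the entry to the citric acid cycle, pyruvate carboxylase, Pcx, which refills the cycle in astrocytes, was at 172, 232 and 235 CPM against 73.9, 87.6 and 98.3 (2.44-fold, adjusted p = 7.95e-06). Pdk4, which inhibits pyruvate dehydrogenase, was 7.22-fold and Suclg2, a subunit of succinyl-CoA ligase, 6.46-fold higher in astrocytes. Idh2, the mitochondrial NADP-dependent isocitrate dehydrogenase, was 4.18-fold and citrate synthase, Cs, 2.76-fold higher. Higher in Cx3cr1-NuTRAP were Pdp1, which reactivates pyruvate dehydrogenase (2.34-fold), Pdk3 (1.61-fold) and the malic enzyme Me3 (1.54-fold). Their mean log2 ratios to the Cx3cr1-NuTRAP negative fraction were -0.43, -0.07 and 0.09.

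In cholesterol synthesis the differences ran through the pathway (median log2 fold change 1.23), with no gene of the list over 5-fold. Cyp51, a demethylase of lanosterol, was at 247, 256 and 285 CPM against 53.8, 66.5 and 74.6 (4.01-fold, adjusted p = 1.73e-07). Mvd (4.74-fold), Idi1 (4.46-fold) and Msmo1, listed as Sc4mol (4.79-fold), which also act after mevalonate, were higher in astrocytes. Lbr, the lamin B receptor with sterol reductase activity, went the other way (2.05-fold, Cx3cr1-NuTRAP log2 ratio to its negative fraction -0.03).

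Of amino acid genes, Glul, glutamine synthetase, was at 9228, 10836 and 9858 CPM against 1220, 1463 and 1537 (6.97-fold, log2 2.80 ± 0.11, adjusted p = 1.48e-08). Phgdh, the first enzyme of serine synthesis, was 6.20-fold, Gldc of the glycine cleavage system 7.97-fold, Prodh, proline dehydrogenase, 7.06-fold, Sardh, sarcosine dehydrogenase, 9.86-fold, and Cth, cystathionine gamma-lyase, 9.79-fold higher in astrocytes. Slc6a11, the GABA transporter GAT3, was at 1517, 3222 and 2374 CPM against 124, 209 and 234 (12.1-fold). Gls2, a glutaminase, which reverses the step of Glul, was at 7.86, 11.7 and 9.61 against 28, 34.9 and 46.4 CPM (3.69-fold higher in Cx3cr1-NuTRAP), but its mean log2 ratio to the negative fraction of that line was 0.24. Of the 13 genes of this list higher in Cx3cr1-NuTRAP, 1 was above its own negative fraction in all 6 mice. Haao, of kynurenine breakdown, had 8 counts in all in the astrocyte libraries (0, 0.385 and 0.0508 CPM against a median of 1.94 and at most 3.89 CPM). Genes of so few counts are given by the ratio of the microglial mean to the pooled level of the astrocyte libraries, with an exact 95% Poisson interval of the summed astrocyte count, which covers counting error only: 13.1 (6.63 to 30.3) for Haao. Its difference relative to the negative fractions did not pass (adjusted p = 0.213), and its fitted log2 fold change of -3.68 was -5.76 without mouse 293.

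Redox genes included members far apart in both directions. In astrocytes Gstm1, a glutathione S-transferase, was at 1548, 1665 and 1589 CPM against 119, 158 and 187 (10.3-fold, adjusted p = 1.93e-08). The metallothioneins Mt2 (15.2-fold), Mt1 (12.5-fold) and Mt3 (11.6-fold) were higher in astrocytes too. They are short genes, and Mt3 was at 6595 CPM in mouse 290 and 1861 and 1820 CPM in mice 293 and 294, still above the 215 to 354 CPM of Cx3cr1-NuTRAP (log2 fold change 3.54, and 2.64 without mouse 290). In microglia subunits of the phagocyte NADPH oxidase were higher. Ncf1 was at 2.39, 0.934 and 1.17 CPM against 55.3, 77.9 and 139 (59.1-fold, adjusted p = 6.63e-07), Ncf4 had a ratio of 61.8 (30.0 to 154) on 7 astrocyte counts, and Cybb, the catalytic subunit, was at 1.79, 0.44 and 0.762 against 5.08, 6.26 and 10.4 CPM (7.49-fold). Of the 14 tested genes of the pentose phosphate pathway and the phagocyte oxidase, 5 (35.7%) were higher in Aldh1l1-NuTRAP and 7 (50.0%) in Cx3cr1-NuTRAP (median -0.69), beside 30.6% and 33.1% of all tested genes. Higher in astrocytes were G6pdx (1.85-fold), Tkt (2.32-fold) and Pgls (2.86-fold), of which the last did not pass relative to the negative fractions (adjusted p = 0.0852) and had a log2 fold change of 0.93 without mouse 290, against 1.52 with it. Without mouse 290 Cybb had a log2 fold change of -3.52, against -2.91. Carbonyl reductase 2, Cbr2, was 23.8-fold higher in Cx3cr1-NuTRAP, from 7.1 CPM to 35.4 CPM in mouse 194. Gpx1, glutathione peroxidase, was at 103, 55 and 63.4 against 70.8, 85.8 and 104 CPM, with overlapping groups (adjusted p = 0.367). It was lower in astrocytes without mouse 290 (log2 -0.54, adjusted p = 0.0159), with total counts (log2 -0.53, adjusted p = 0.0296) and without the 4 libraries with high Xist (log2 -0.37, adjusted p = 0.00824).

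Of 77 lysosomal genes, 27 (35.1%) were higher in Aldh1l1-NuTRAP and 28 (36.4%) in Cx3cr1-NuTRAP (median 0.02), near the shares of all tested genes (30.6% and 33.1%). Over 5-fold, 1 gene (1.3%) was higher in Aldh1l1-NuTRAP and 8 (10.4%) in Cx3cr1-NuTRAP, beside 4.15% and 2.83% of all tested genes. The protease cathepsin S, Ctss, was at 23.6, 4.78 and 5.13 CPM in astrocytes against 603, 851 and 1373 in microglia (81.5-fold, adjusted p = 7.64e-06). The membrane proteins Cd68 (0.497, 0.605 and 0.559 against 34.1, 43.2 and 84.9 CPM, 85.1-fold) and Laptm5 (40.6-fold) showed the same direction. Cathepsin D, Ctsd, was shared to a larger degree (795, 602 and 586 against 1113, 1464 and 2269 CPM, 2.31-fold, adjusted p = 0.00064). Astrocytes held more of cathepsin O, Ctso (5.74-fold), the tetraspanin Cd63 (4.77-fold) and the proton pump subunit Atp6v0e (4.25-fold). Without mouse 290 the log2 fold change of Ctss was -7.49, against -6.35 with it.

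Nuclear genes of the respiratory chain were higher in Aldh1l1-NuTRAP in 68 of 82 cases (82.9%, beside 30.6% of all tested genes). In Cx3cr1-NuTRAP 1 was higher (1.22%, beside 33.1%, median 0.90). However, the calls of these genes rested in part on mouse 290. Their summed level was 33573 CPM in mouse 290, 16688 and 18135 in mice 293 and 294, and 10534 to 15228 in Cx3cr1-NuTRAP mice. These genes are short (median exonic length 1578 bases, GENCODE). Without mouse 290, 41 of 83 were higher in Aldh1l1-NuTRAP and 1 in Cx3cr1-NuTRAP (median 0.41). With total counts 38 were higher in Aldh1l1-NuTRAP, relative to the negative fractions 34, or 43 with the mouse as a block, and without the 4 libraries with high Xist the median was 0.28. The named subunits of cytochrome c oxidase were tissue isoforms at low levels: Cox8b (21.4, 3.46 and 3.76 against 0.315, 0.935 and 1.47 CPM), Cox7a1 (5.11-fold) and Cox4i2 (4.17-fold) were higher in astrocytes, and Cox6a2, at 1.99, 1.76 and 1.37 against 2.8, 4.67 and 4.73 CPM, was higher in Cx3cr1-NuTRAP with a mean log2 ratio to the negative fraction of 0.16. Cox8b and Cox7a1 had log2 fold changes of 3.39 and 2.35, and of 2.02 and 1.43 without mouse 290.

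Cytosolic ribosomal proteins gave no stable direction. Of 81 genes, 12 (14.8%) were higher in Aldh1l1-NuTRAP and 2 (2.47%) in Cx3cr1-NuTRAP (median 0.29), below the 30.6% and 33.1% of all tested genes. Without mouse 290 these counts were 5 and 17 (median -0.15). The sum was 28802 CPM in mouse 290 and 12870 and 13552 in the others, against 12071 to 17107 CPM. Without mouse 293, 29 were higher in Aldh1l1-NuTRAP, without mouse 294, 22, and without Cx3cr1-NuTRAP mouse 210, 20. The count was 26 with all 29 libraries in 1 fit, 3 with total counts, and 7 relative to the negative fractions (6 with the mouse as a block). Without the 4 libraries with high Xist, 6 were higher in Aldh1l1-NuTRAP and 44 in Cx3cr1-NuTRAP. Rpl10a was 3.65-fold higher in astrocytes (563, 587 and 420 against 124, 146 and 159 CPM). The EGFP-tagged protein is encoded by an L10a transgene, and whether its reads were counted as Rpl10a was not tested. Rpl22 and Rps27l were each 2.23-fold higher. Reads of ribosomal proteins can be shared with their many pseudogenes.

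Solute carriers differed in kind. Slc1a2, the main glutamate transporter of astrocytes, was at 5032, 11710 and 9156 CPM against 1265, 1639 and 1881 (5.42-fold, adjusted p = 4.69e-06). The mitochondrial carriers Slc25a18 (a glutamate carrier, 662, 633 and 598 against 31.6, 46.6 and 50.5 CPM, 14.2-fold) and Slc25a34 (14-fold) were among those furthest apart. Microglial ribosomes held Slc15a3, a lysosomal peptide transporter (0.199, 0 and 0.356 against 13.5, 15.3 and 24.1 CPM, ratio 87.5, interval 46.1 to 191 on 9 astrocyte counts), Slc11a1, the metal transporter NRAMP1 of phagosomes (36.2-fold), and Slc7a7, a carrier of cationic amino acids (7.22-fold). At these low astrocyte levels the fitted log2 fold change of Slc15a3, -6.40, was -5.75 without mouse 293 and -7.69 without mouse 294, and that of Slc11a1, -5.18, was -4.52 without mouse 293. Of the 97 solute carriers higher in Cx3cr1-NuTRAP, 14 were above the negative fraction in all 6 mice and 17 below it in all 6.

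**Figure D5:**
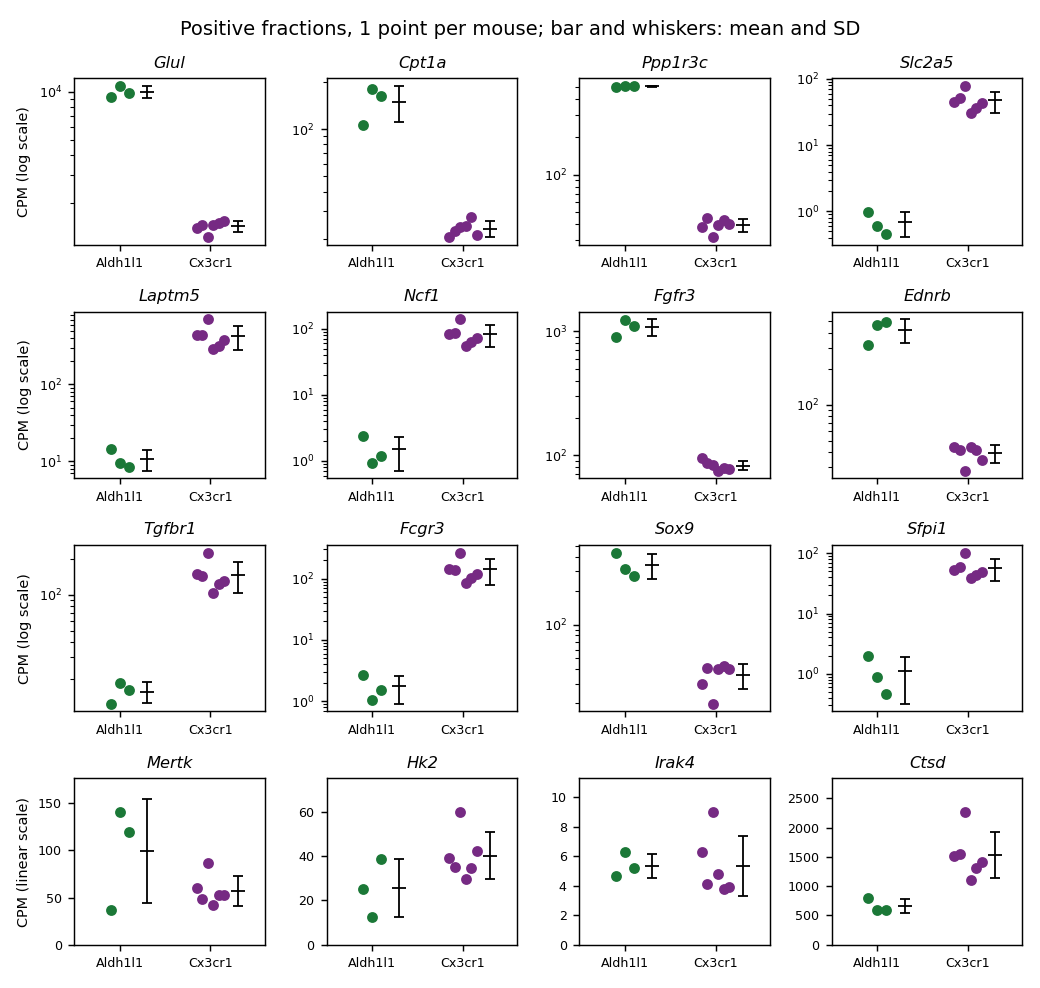
CPM of 16 genes in each positive fraction, 1 point per mouse with the mean and SD, Aldh1l1-NuTRAP (n = 3) and Cx3cr1-NuTRAP (n = 6), on log axes in the upper 3 rows and on linear axes from 0 in the lowest row. The groups are apart for genes such as Glul (9228 to 10836 against 1220 to 1537 CPM) and Fcgr3 (1.04 to 2.69 against 84.7 to 266 CPM), and overlap for Mertk, Hk2 and Irak4 in the lowest row.

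Receptors were divided by family. Innate immune recognition receptors were higher in Cx3cr1-NuTRAP in 50 of 62 cases (80.6%, beside 33.1% of all tested genes). Of the 62, 43 were over 5-fold higher there (69.4%, beside 2.83%). In Aldh1l1-NuTRAP 4 were higher (6.45%, beside 30.6%, median -4.21). Of the 50, 47 were above the negative fraction in every Cx3cr1-NuTRAP mouse. Fcgr3, an Fc receptor for IgG, was at 2.69, 1.04 and 1.52 CPM against 84.7, 128 and 266 (85.4-fold, adjusted p = 1.12e-06). Trem2, the lipid-sensing receptor of microglia, was at 4.28, 1.21 and 1.52 against 95.2, 125 and 229 CPM (63.3-fold, log2 -5.98, and -6.65 without mouse 290). The Toll-like receptors Tlr7 (26.2-fold) and Tlr2 (5.20-fold; 1.09, 2.86 and 2.74 against 7.88, 11.7 and 17.4 CPM) also differed. Several had no more than 3 counts in any astrocyte library. Their ratios were 145 (66.6 to 395) for Cd180, 153 (42.2 to 1260) for Tlr9 and 74.6 (25.5 to 362) for Clec7a, the beta-glucan receptor dectin-1. Lilra5 had no astrocyte count and was at least 8.52-fold higher than a floor of 3 counts in the shallowest astrocyte library, 0.298 CPM. Among the 4 higher in astrocytes were Tlr3, the endosomal receptor for double-stranded RNA, at 73.2, 82.5 and 68.6 CPM in astrocytes against 15.2, 16.4 and 21.4 (4.40-fold higher in astrocytes, adjusted p = 2.07e-07), and Fcgrt, the neonatal Fc receptor (2.39-fold). Both were above the negative fraction in every mouse of both lines.

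Of 49 cytokine receptors, 11 (22.4%) were higher in Aldh1l1-NuTRAP and 23 (46.9%) in Cx3cr1-NuTRAP (median -0.80), beside 30.6% and 33.1% of all tested genes. Il10ra, the ligand-binding chain for interleukin 10, was at 1.89, 1.37 and 1.93 CPM against 29.3, 42.4 and 66.8 (24.9-fold, adjusted p = 8.45e-07). Tnfrsf1b, TNF receptor 2, was 22.3-fold higher, and Tnfrsf14, with 2 astrocyte counts, had a ratio of 57.4 (15.9 to 474). Ifngr1, which binds interferon gamma, was steady in astrocytes (23.2, 23.1 and 23.3 CPM) and at 41.5, 54.3 and 100 CPM in microglia (2.57-fold). Astrocyte ribosomes held Cntfr, the receptor for ciliary neurotrophic factor (313, 531 and 511 against 82.2, 90.4 and 108 CPM, 4.79-fold), its signal chain Il6st (1.87-fold), the lymphotoxin beta receptor Ltbr (4.62-fold) and Tnfrsf19 (7.50-fold).

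Of 53 receptor tyrosine kinases, 18 (34.0%) were higher in Aldh1l1-NuTRAP and 25 (47.2%) in Cx3cr1-NuTRAP, beside 30.6% and 33.1% of all tested genes. Fgfr3, a fibroblast growth factor receptor, was at 901, 1240 and 1093 CPM in astrocytes against 74.9, 80.6 and 94 (13.1-fold, adjusted p = 8.77e-09). Ntrk2, the BDNF receptor TrkB, was 6.92-fold, the decoy-like Fgfrl1 10.3-fold, Axl, a receptor for Gas6, 8.91-fold and Egfr 6.18-fold higher in astrocytes. Csf1r, on which microglia depend, was at 19.5, 9.67 and 8.69 CPM against 538, 800 and 1496 (68.5-fold, adjusted p = 1.04e-06), the only tested gene of this list over 5-fold higher in Cx3cr1-NuTRAP. Of the 25 genes of the list higher in that line, 5 were above the negative fraction in every mouse. Flt3 (3.58-fold) and Epha3 (3.20-fold) had mean log2 ratios to it of 0.19 and -0.42. Mertk, a receptor for engulfing dying cells, was above the negative fraction in every mouse of both lines. It was at 36.9, 141 and 120 CPM against 41.7, 52.6 and 87.2, and did not pass (log2 0.80 ± 0.34, adjusted p = 0.0606). Without mouse 290 it was higher in astrocytes (log2 1.18, adjusted p = 0.00135), and also without mouse 194 (adjusted p = 0.029), by DESeq2 (adjusted p = 0.0209), with all 29 libraries in 1 fit (adjusted p = 0.0084), with the filter at 100 counts (adjusted p = 0.0485) and without the 4 libraries with high Xist (log2 1.42, adjusted p = 2.4e-08).

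Of 61 receptors for morphogens, 26 (42.6%) were higher in Aldh1l1-NuTRAP and 19 (31.1%) in Cx3cr1-NuTRAP (median 0.27), beside 30.6% and 33.1% of all tested genes. Over 5-fold, 12 (19.7%, beside 4.15% of all tested genes) were higher in Aldh1l1-NuTRAP and 2 (3.28%, beside 2.83%) in Cx3cr1-NuTRAP. Fzd2, a Wnt receptor, was at 87.9, 124 and 109 CPM against 6.51, 9.48 and 11.1 (11.6-fold, adjusted p = 2.89e-08). Bmpr1b, a receptor for bone morphogenetic proteins, was 9.35-fold, Gas1, a Hedgehog co-receptor, 8.30-fold and Notch2 2.32-fold higher in astrocytes. Ptch1, the Hedgehog receptor, was 6.73-fold higher, with mouse 290 at 33.5 CPM and mice 293 and 294 at 222 and 195 CPM, against 15.2, 20.6 and 30. In the other direction stood the receptors for transforming growth factor beta. Tgfbr1 was at 12.3, 18.3 and 16 CPM against 104, 137 and 224 (9.34-fold, adjusted p = 1.71e-06), Tgfbr2 was 6.62-fold and the co-receptor endoglin, Eng, 3.00-fold higher in Cx3cr1-NuTRAP.

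Among receptors for transmitters coupled to G proteins, 45 of 68 (66.2%, beside 33.1% of all tested genes) were higher in Cx3cr1-NuTRAP and 14 (20.6%, beside 30.6%) in Aldh1l1-NuTRAP (median -1.10). Of the 45, 5 were above the negative fraction in every mouse and 11 below it in every mouse. All 14 neuronal markers were higher in the same direction (median -1.47, 3449 to 4037 against 8920 to 11781 CPM), and their part was not tested. Purine receptors were found on both sides. P2ry12, the ADP receptor of microglial processes, was at 8.26, 4.01 and 5.44 CPM against 135, 184 and 325 (34.5-fold, adjusted p = 6.78e-07), and P2ry13 (94.5-fold) and the UDP receptor P2ry6 (34.8-fold) followed it. In astrocytes, P2ry1 was 3.69-fold higher (18.4, 20.6 and 24.9 against 4.1, 5.87 and 7.67 CPM) and the adenosine receptor Adora2b 11.3-fold higher. Other receptors of astrocytes were Ntsr2 for neurotensin (991, 984 and 950 against 70.9, 88.5 and 94.9 CPM, 11.2-fold), Ednrb for endothelin (10.8-fold), Grm3 for glutamate (6.33-fold), Adra1a for noradrenaline (3.35-fold) and the GABA-B subunit Gabbr1 (2.37-fold). Grm5, by contrast, was at 32, 45.3 and 36 CPM against 71.8, 91.7 and 115, with a mean log2 ratio of -0.48 to the Cx3cr1-NuTRAP negative fraction. Adrb1 did not pass (27.6, 19.6 and 18.4 against 18.3, 20.3 and 24.1 CPM, adjusted p = 0.773).

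Of 25 receptors for chemokines, complement and lipids, 7 (28.0%, beside 30.6% of all tested genes) were higher in Aldh1l1-NuTRAP and 12 (48.0%, beside 33.1%) in Cx3cr1-NuTRAP (median -0.52). S1pr1, a receptor for sphingosine 1-phosphate, was at 1373, 1349 and 1348 CPM against 85.1, 113 and 125 (12.4-fold, adjusted p = 8.99e-09), and Lpar4 for lysophosphatidic acid (8.61-fold) and S1pr2 (2.85-fold) were also higher in astrocytes. The complement receptors were higher in microglia: C5ar1, with no count in any astrocyte library, was at 4.44, 6.79 and 15 CPM, at least 25.9-fold higher, and C3ar1 was 39.1-fold higher (log2 -5.29, -6.97 without mouse 290 and -4.60 without mouse 293). The prostaglandin receptor Ptger1 was at 0.398 to 1.68 CPM in the 9 libraries and was not tested.

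Orphan and adhesion receptors (19 of 72 or 26.4% higher in Aldh1l1-NuTRAP and 34 or 47.2% in Cx3cr1-NuTRAP, beside 30.6% and 33.1% of all tested genes, median -0.53) included Gpr37l1, at 1504, 1754 and 2076 CPM in astrocytes against 109, 186 and 213 (10.1-fold), Gpr146 (6.22-fold) and the planar polarity cadherin Celsr1 (6.14-fold). Microglial ribosomes held Gpr34, a receptor for lysophosphatidylserine (1.39, 0.879 and 0.712 against 46.6, 66.9 and 127 CPM, 76.9-fold), Gpr183, a receptor for oxysterols (ratio 80.5, interval 37.0 to 219 on 6 astrocyte counts), and Gpr84 (ratio 131, interval 45 to 637 on 3 astrocyte counts). The fitted log2 fold change of Gpr183, -6.23, was -7.04 without mouse 293 and -5.53 without mouse 294. Of 19 integrins 2 (10.5%) were higher in Aldh1l1-NuTRAP and 11 (57.9%) in Cx3cr1-NuTRAP (median -1.09), beside 30.6% and 33.1% of all tested genes. Of the 11, 4 were above the negative fraction in every Cx3cr1-NuTRAP mouse. Itgam and Itgb2, the chains of complement receptor 3, were 48.2-fold and 77.6-fold higher in Cx3cr1-NuTRAP (Itgam 8.95, 2.58 and 2.24 against 137, 192 and 368 CPM, log2 -5.59, and -6.45 without mouse 290). Itgb3 was 8.26-fold higher there as well. Itgb8, an activator of latent transforming growth factor beta, was higher in astrocytes (11.7, 44.6 and 40.7 against 3.21, 4.56 and 5.49 CPM, 7.31-fold), lowest in mouse 290.

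Ion channels were mostly called higher in Cx3cr1-NuTRAP (109 of 175 or 62.3%, against 39 or 22.3% higher in Aldh1l1-NuTRAP, median -1.05). The same held for ionotropic transmitter receptors (26 of 42 or 61.9%, against 8 or 19%, median -1.18). Of all tested genes 33.1% were higher in Cx3cr1-NuTRAP and 30.6% in Aldh1l1-NuTRAP. In these 2 lists, 7 of the 109 and 4 of the 26 were above the negative fraction in every Cx3cr1-NuTRAP mouse, and 21 and 5 were below it in every mouse, beside 895 above and 524 below of all 4530 genes higher in that line. Neuronal markers moved with these lists, at 3449 to 4037 against 8920 to 11781 CPM; their part was not tested. Gria2, an AMPA receptor subunit, was at 294, 239 and 252 CPM against 473, 654 and 870 (2.51-fold) with a mean log2 ratio of 0.18. Similar ratios held for Gabrd (3.77-fold, 0.08) and Gabra6 (4.27-fold, -0.23), GABA-A subunits of cerebellar granule cells, and for the glycine receptor Glra1 (4.38-fold, 0.38). Gabra6 had a log2 fold change of -2.09, and of -2.75 without mouse 294. Without the 4 libraries with high Xist it did not pass (log2 -1.82, adjusted p = 0.104). Channels above the negative fraction of microglia were Kcnk6, a 2-pore potassium channel (1.09, 1.26 and 1.52 against 21.8, 29.3 and 53.9 CPM, 24.1-fold), and Hvcn1, the proton channel that serves the phagocyte oxidase (22.4-fold).

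Over 5-fold, 10 channels (5.71%) were higher in astrocytes and 3 (1.71%) in Cx3cr1-NuTRAP, near the 4.15% and 2.83% of all tested genes. Kcnj10, the potassium channel Kir4.1, was at 1033, 2454 and 2165 CPM against 158, 215 and 235 (9.01-fold, adjusted p = 7.58e-07). The connexins Gja1 (10.1-fold) and Gjb6 (11.1-fold) and the water channel Aqp4 (318, 577 and 632 against 72.9, 101 and 125 CPM, 5.01-fold) were higher in astrocytes. Kcne5, listed as Kcne1l, an accessory subunit of potassium channels, was 16.2-fold higher. GABA-A subunits of astrocytes were Gabrg1 (108, 114 and 115 against 14.7, 22.9 and 26 CPM, 5.09-fold), Gabrb1 (2.82-fold) and Gabra2 (2.41-fold), the opposite direction to Gabrd and Gabra6.

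Many kinases, adaptors and GTPase regulators of blood cells were higher in microglia. Of 67 haematopoietic kinases and GTPase regulators 44 were higher in Cx3cr1-NuTRAP, 35 over 5-fold, and 13 in Aldh1l1-NuTRAP (median -2.64), with 40 of the 44 above the negative fraction in every mouse. Vav1, an exchange factor for small GTPases, was at 0.895, 0.824 and 0.407 CPM against 34.4, 45.9 and 76.8 (70.5-fold, adjusted p = 2.55e-07). Inpp5d, the phosphatase SHIP1, was 30.2-fold and Syk, which relays signals from Fc receptors and Trem2, 8.79-fold higher (3.98, 1.92 and 3.2 against 18.5, 24.1 and 44.4 CPM). On 12 and 2 astrocyte counts, the adaptor Sash3 had a ratio of 67.7 (38.8 to 131) and Themis2 of 192 (53.1 to 1583). Astrocytes held the relatives of broad expression: Inppl1, the phosphatase SHIP2, was at 111, 179 and 165 CPM against 32.6, 42 and 62.9 (3.27-fold), Dock1, an exchange factor for Rac, was 5.09-fold and Fermt2, kindlin-2, 4.98-fold higher.

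Of 117 second messenger enzymes and G proteins, 32 (27.4%) were higher in Aldh1l1-NuTRAP and 62 (53.0%) in Cx3cr1-NuTRAP (median -0.68), beside 30.6% and 33.1% of all tested genes, and 16 of the 62 were above the negative fraction in every Cx3cr1-NuTRAP mouse. Gna13, a G protein alpha subunit, was at 257, 433 and 369 CPM in astrocytes against 49.5, 52.9 and 56.3 (6.66-fold, adjusted p = 6.46e-08), Rgs20 was 8.56-fold and the inositol trisphosphate kinase Itpkb 6.42-fold higher. Gna15, the alpha subunit of blood cells, was at 1.39, 0.33 and 0.61 against 15.4, 22.6 and 43.5 CPM (34.9-fold), and Gngt2 (27.7-fold) and the phospholipase Plcb2 (21.6-fold) showed the same direction. Rgs10, a brake on G protein signals, was 15.6-fold, the phosphodiesterase Pde3b 12.5-fold and the adenylyl cyclase Adcy7 6.13-fold higher in Cx3cr1-NuTRAP.

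Components of innate and NF-kappaB signalling were called about as often as all tested genes (15 of 50, 30.0%, and 17 of 50, 34.0%, beside 30.6% and 33.1%; median 0.08). The shared adaptor Myd88 was at 12.5, 15.8 and 13.9 CPM against 11.8, 15.7 and 22.2 (log2 -0.15 ± 0.20, adjusted p = 0.52) and the kinase Irak4 at 4.67, 6.27 and 5.18 against 3.81, 4.46 and 9.03 (log2 0.02 ± 0.30, adjusted p = 0.967). Both overlapped between the lines and were above the negative fraction in every mouse of both. The adaptors next to them went opposite ways. Ticam1 (TRIF), which serves Tlr3, was at 25.2, 27.3 and 27.2 CPM in astrocytes against 4.77, 7.24 and 7.83 (3.93-fold), and Irak2 was 4.38-fold and Traf1 4.58-fold higher with it. Ticam2 (TRAM), with 2 astrocyte counts, had a ratio of 140 (38.8 to 1158). Unc93b1, which carries Toll-like receptors to endosomes, was 22.0-fold higher in microglia (7.66, 5.77 and 6.25 against 98.5, 132 and 239 CPM) and Tnfaip8l2 33.2-fold (log2 -5.05, and -5.98 without mouse 290). Nfkbia, the inhibitor of NF-kappaB, was 2.99-fold higher in astrocytes. Casp1, the inflammasome protease, did not pass (6.96, 2.69 and 3.71 against 4.81, 6.25 and 11.3 CPM, adjusted p = 0.11), whereas it was higher in microglia without mouse 290 (log2 -1.13, adjusted p = 0.0169), with total counts (adjusted p = 0.0215), with all 29 libraries in 1 fit (adjusted p = 0.0474) and without the 4 libraries with high Xist (adjusted p = 0.0112).

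Of 157 secreted ligands, 57 (36.3%) were higher in Aldh1l1-NuTRAP and 65 (41.4%) in Cx3cr1-NuTRAP (median -0.31), not far from the 30.6% and 33.1% of all tested genes. Csf1, a ligand of Csf1r, was at 39, 49.4 and 48.1 CPM in astrocytes against 16.5, 20.1 and 24.8 (2.22-fold, adjusted p = 3.67e-05). Il34, the other ligand, was 2.42-fold higher in Cx3cr1-NuTRAP (12, 14.8 and 13.6 against 30.7, 31.7 and 36.8 CPM) with a mean log2 ratio of -0.10 to the negative fraction. Tgfb1 was higher in microglia, as were its receptors (3.98, 3.19 and 2.59 against 28.2, 41.6 and 79.5 CPM, 14-fold). The chemokines Ccl6 and Pf4, with 8 astrocyte counts each, had ratios of 83.2 (42.2 to 193) and 61.3 (31.1 to 142), and the cytokine Il1a, with 3, of 38.6 (13.2 to 187). Igf1 was also higher in Cx3cr1-NuTRAP (2.13-fold, log2 ratio 0.33). Ccl6 had a fitted log2 fold change of -6.28, and of -6.96 without mouse 290, and Pf4 of -5.91, and of -7.06 without mouse 294. Astrocyte ribosomes held the growth factor midkine, Mdk (416, 183 and 219 against 17.3, 20.9 and 23.1 CPM, 13.3-fold), angiotensinogen, Agt (13-fold), the Wnt inhibitor Sfrp5 (12.6-fold), Bmp7 (2.95-fold) and the Notch ligand Jag1 (2.69-fold). Of the 65 ligands higher in Cx3cr1-NuTRAP, 13 were above the negative fraction in every mouse. Fgf2 (0.199, 1.98 and 1.32 CPM in astrocytes) and Ccl3 (at most 1.59 CPM) were too low to test, as was the potassium channel Kcnn4.

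Of the regulators, developmental transcription factors were higher in Aldh1l1-NuTRAP in 64 of 129 cases (49.6%, beside 30.6% of all tested genes). Over 5-fold there were 26 (20.2%, beside 4.15%). In Cx3cr1-NuTRAP 32 were higher (24.8%, beside 33.1%, median 0.47). Lhx2, a LIM homeodomain factor, was at 368, 402 and 329 CPM against 24.6, 30.4 and 33.2 (12.2-fold, adjusted p = 8.75e-09). The SOX factors Sox9 (433, 309 and 269 against 19.8, 40.6 and 43.1 CPM, 9.42-fold), Sox2 (9.22-fold) and Sox21 (11.6-fold), and effectors of Notch and bone morphogenetic protein signals, Hes5 (7.98-fold), Id3 (12.8-fold) and Id4 (8.89-fold), were higher in astrocytes. Gli3, of the Hedgehog pathway, was 9.31-fold and Nfia, which starts astrocyte development, 4.05-fold higher. Pou2f2, a factor of lymphoid and myeloid cells, was 8.63-fold higher in Cx3cr1-NuTRAP. Pax2 (5.34-fold) and Pax8 (3.76-fold) were also called there, at medians of 4.03 and 1.69 CPM, with mean log2 ratios to the negative fraction of -0.38 and 0.61, and relative to the negative fractions Pax8 did not pass (log2 0.00, adjusted p = 0.991).

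Nuclear receptors were higher in Aldh1l1-NuTRAP in 16 of 36 cases (44.4%, beside 30.6% of all tested genes) and in Cx3cr1-NuTRAP in 8 (22.2%, beside 33.1%), none of the 8 above the negative fraction in all 6 mice (median 0.47). Nr2e1 (TLX), a receptor of neural stem cells, was at 79, 131 and 98.6 CPM against 6.23, 9.14 and 11.8 (11.4-fold, adjusted p = 3.34e-07). Rorb was 7.34-fold higher, but its level was 1032 CPM in mouse 290 and 168 and 157 CPM in mice 293 and 294, against 52.1, 60 and 70.8 (log2 fold change 2.88, and 1.40 without mouse 290). Nr3c1, the glucocorticoid receptor, was 1.48-fold higher in astrocytes and did not pass with total counts only (log2 0.25, adjusted p = 0.121). Called in Cx3cr1-NuTRAP were Esrrg (2.34-fold) and the progesterone receptor Pgr (2.31-fold), with mean log2 ratios of -0.02 and -0.23.

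Of 103 immune and haematopoietic transcription factors, 26 (25.2%) were higher in Aldh1l1-NuTRAP and 47 (45.6%) in Cx3cr1-NuTRAP (median -0.41), beside 30.6% and 33.1% of all tested genes, and 22 of the 47 were above the negative fraction in every Cx3cr1-NuTRAP mouse. Spi1 (PU.1), listed as Sfpi1, the ETS factor of myeloid cells, was at 1.99, 0.879 and 0.457 CPM in astrocytes against 39.3, 50.6 and 102 (57.0-fold, log2 -5.83 ± 0.50, adjusted p = 2.39e-06; -6.43 without mouse 290). Ikzf1 (42.7-fold), the interferon regulatory factors Irf5 (35.2-fold) and Irf8 (34, 43.4 and 71.1 against 1.59, 1.76 and 1.07 CPM in astrocytes, 31.6-fold) and Runx1 (7.62-fold) were higher in microglia. Sall1, known as a factor of microglial identity, differed less: it was at 37.5, 56.9 and 39.2 CPM against 58.7, 75.6 and 126 (1.82-fold, adjusted p = 0.00869) and above the negative fraction in every mouse of both lines. Mef2c was 3.20-fold higher in Cx3cr1-NuTRAP with a mean log2 ratio of -0.05. Among the 26 genes of the list higher in astrocytes were Klf15 (123, 164 and 169 against 18, 19.8 and 24.1 CPM, 7.37-fold), the ETS factor Etv4 (6.26-fold) and, at 6.56, 5.77 and 4.88 CPM, Elf5 (9.81-fold).

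PU.1 binds an ETS motif, and the promoters of the genes furthest apart were searched for the letters GAGGAAGT on both strands, from 250 bases before to 50 after the start site (RefSeq, GRCm38.p6). A gene was counted if any of its promoters held the motif. This was so for 41 of 296 genes (13.9%) over 5-fold higher in Cx3cr1-NuTRAP and 7 of 443 (1.58%) over 5-fold higher in Aldh1l1-NuTRAP. It was so for 3.37% of 10844 tested genes. Counted per promoter, which is a different unit, the motif was in 3.20% of all 32851 promoters of this length. The RUNX letters TGTGGTT were in 9.80%, 4.06%, 4.25% and 5.27%, and the half-site TTGGCA of NFI factors in 15.9%, 16.5%, 13.6% and 14.1% of the same sets, counted in the same units. A match is a description of letters and not a bound site, and these motifs were chosen with the results known. The promoters of Ctss (chr3:95526536-95526835, plus strand), Vav1 (chr17:57278850-57279149, plus strand) and C1qc (chr4:136892865-136893164, minus strand) are printed because they belong to a protease, a signalling factor and a complement chain that were 81.5-fold, 70.5-fold and 69.3-fold higher in microglia and hold the motif. Each is written 5′ to 3′ on the strand of the gene, with the motif in capitals and the start site right after base 250. The motif lies 2, 11 and 195 bases before the start site by its first base, and in Ctss and C1qc it is read on the opposite strand (ACTTCCTC).
Ctss: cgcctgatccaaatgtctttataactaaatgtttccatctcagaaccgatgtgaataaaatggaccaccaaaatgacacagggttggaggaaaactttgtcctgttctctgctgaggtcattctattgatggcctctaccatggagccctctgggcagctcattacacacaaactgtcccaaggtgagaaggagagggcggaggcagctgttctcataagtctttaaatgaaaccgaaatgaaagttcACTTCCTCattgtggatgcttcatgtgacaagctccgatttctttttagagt
Vav1: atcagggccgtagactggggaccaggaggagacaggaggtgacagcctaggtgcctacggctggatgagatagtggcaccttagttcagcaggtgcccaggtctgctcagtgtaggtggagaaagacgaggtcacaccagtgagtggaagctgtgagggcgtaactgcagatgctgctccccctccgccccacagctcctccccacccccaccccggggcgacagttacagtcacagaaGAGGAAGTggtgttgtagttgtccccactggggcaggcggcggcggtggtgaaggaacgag
C1qc: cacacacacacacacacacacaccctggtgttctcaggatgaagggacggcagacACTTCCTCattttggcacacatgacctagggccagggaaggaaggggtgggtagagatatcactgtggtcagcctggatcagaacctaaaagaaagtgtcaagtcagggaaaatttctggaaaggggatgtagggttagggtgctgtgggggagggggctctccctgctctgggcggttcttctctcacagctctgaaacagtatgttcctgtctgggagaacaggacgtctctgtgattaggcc

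Of the 10 genes on no list that were furthest apart in each direction and had over 20 counts in every library, the microglial ones were mostly known from macrophages. Lysozyme 2, Lyz2, was at 2.49, 1.26 and 1.37 CPM against 86.3, 114 and 212 (77.5-fold, adjusted p = 2.24e-07). C1qb (77.4-fold) and C1qc (69.3-fold) complete the C1q complex with C1qa, and the perforin-like Mpeg1 (74.1-fold), the selectin ligand Selplg (72.8-fold) and the scavenger receptor Stab1 (22.0-fold) are proteins of phagocytes. Lpcat2, which remodels phospholipids, was 37.4-fold, Rnase4 30.4-fold, the secreted Olfml3 29.2-fold and the invariant chain Cd74 22.4-fold higher. Without mouse 290 the log2 fold changes of C1qb, C1qc and Selplg were -6.95, -6.78 and -6.79, against -6.27, -6.11 and -6.19. In astrocytes Nrarp, a feedback inhibitor of Notch, was at 314, 327 and 238 CPM against 15.2, 18 and 20.3 (16.4-fold, adjusted p = 8.77e-09). The homeodomain factor Dbx2 was 16.1-fold, Fxyd1, a regulator of the sodium pump, 15.7-fold, the protease inhibitor Timp4 14.3-fold and Ttpa, the vitamin E transfer protein, 13.7-fold higher. S100a1, a calcium-binding protein and a short gene, was at 1133, 474 and 496 against 32.1, 53.4 and 63 CPM (13.8-fold). The largest of these was Olfr287 (111, 75.3 and 70.4 against 2.52, 3.66 and 5.11 CPM, 22.7-fold), a member of the olfactory receptor family, whose reads may be shared or belong to an overlapping transcript, and the rest were Ppp1r3g, BC064078 (15.5-fold) and 2900052N01Rik (14.4-fold).

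The 2 lines also had genes above the negative fraction in common. Of 13676 tested genes, 5502 were above the negative fraction in all 3 Aldh1l1-NuTRAP mice, 1847 in all 6 Cx3cr1-NuTRAP mice and 810 in all mice of both lines, which is 14.7% of the former and 43.9% of the latter. These shares were near those of all tested genes above the negative fraction in Cx3cr1-NuTRAP (13.5%) and in Aldh1l1-NuTRAP (40.2%). Between the lines 357 of the 810 were higher in astrocytes, 72 were higher in microglia and 381 were not called. The lysosome list had 29 of 77 tested genes among the 810, innate and NF-kappaB signalling 14 of 50, and immune and haematopoietic transcription factors 17 of 103, beside 5.92% of all tested genes. Named genes of this kind were Ctsd, Ifngr1 and Sall1, higher in microglia, Tlr3, Idh2, Atp6v0e, Rps27l, Ltbr, Fcgrt and Irak2, higher in astrocytes, and Mertk, Hk2, Gpx1, Myd88, Irak4 and Casp1, which did not pass. Others, chosen after their values were seen, were the integrin Itgb5 (mean log2 ratio 2.59 ± 0.33 SD in astrocytes, n = 3, and 2.32 ± 0.43 in microglia, n = 6), the transcription factor Cebpa (1.91 ± 0.28 and 2.54 ± 0.46), the protease inhibitor cystatin C, Cst3 (2.77 ± 0.09 and 1.89 ± 0.47), and the cathepsin Ctsz (1.84 ± 0.17 and 1.98 ± 0.45). Of these Itgb5 did not differ between the lines at the threshold (log2 -0.28, adjusted p = 0.312), while Cebpa and Ctsz were higher in microglia (adjusted p = 0.0349 and 0.0227) and Cst3 in astrocytes (adjusted p = 0.02).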

How the data were processed

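The authors trimmed and aligned stranded, paired-end RNA-seq reads to mm10 in Strand NGS, quantified RefSeq genes and normalized them with DESeq. The deposited table holds, per gene and library, each estimated count from the authors (81.4% of non-zero values are not whole) and log2 values normalized by the authors, which were not used. Raw values were rounded; rows with repeated symbols (454 of 36172) stayed separate and list members among them were left out. Genes with over 20 counts in every library of at least 1 line were kept. Positive fractions were fitted with edgeR 4.0.16 (quasi-likelihood, TMM, no covariate; R 4.3.3), with DESeq2 1.42.0 as an alternative, after tests on simulated data. Ratios to the negative fraction used a prior count of 2. Libraries held 11910720 to 22308906 counts. Named genes were the 4 markers, preset key genes, up to 3 members per list and direction with the largest fold (called, over 20 counts in every library of the higher line, ranges apart), and the 10 largest per direction on no list with over 20 counts in every library. The members, lists and motifs were chosen with earlier results of these data known. The lines were different mice, so the main comparison has no pairing. Positive and negative fractions of a mouse come from the same animal, and their deviations from the group means correlated at 0.664, 0.465 and 0.533 in Aldh1l1-NuTRAP and -0.309 to 0.24 in Cx3cr1-NuTRAP. Some genes that this rule names are not reported here.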

Additional observations from a re-analysis of the deposited data

Results flagged for a closer look

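Of 245 named genes tested for a sample far from the others among the 6 Cx3cr1-NuTRAP positive fractions, 47 had one, by Dixon's criterion at its 95% critical value, where chance gives about 1 in 20. In 43 of the 47 the sample was mouse 194. It was the highest mouse for the following genes, in CPM. Among receptors and membrane proteins it had Cx3cr1 419, Csf1r 1496, Tgfbr2 99.9, Eng 45, Ifngr1 100, P2ry13 124, C5ar1 15, C3ar1 27.8, S1pr2 5.46, Gpr183 18.7, Fcgr3 266, Trem2 229, Tlr9 10.2, Itgam 368, Itgb2 124 and Hvcn1 47.6. Among metabolism, lysosome and transport it had Ncf1 139, Cbr2 35.4, Cd68 84.9, Slc15a3 24.1, Slc11a1 33.4, Lyz2 212, Lpcat2 167 and Rnase4 169. Among signalling and secreted proteins it had Pde3b 80.5, Plcb2 18.2, Syk 44.4, Unc93b1 239, Tgfb1 79.5, Pf4 20.8, C1qb 1078, Mpeg1 468 and Olfml3 361. Among transcription factors it had Sfpi1 102, Irf8 71.1, Sall1 126, Ikzf1 60.2 and Irf5 60.1. Most of these are genes of microglia, for which mouse 194 also had the highest marker sum (5782 CPM). Its sum of border-associated macrophage markers, which include Cbr2 and Pf4, was 238 CPM, against 68.2 to 105 CPM in the other mice. It was the lowest mouse, in CPM, for Ntsr2 70.9, Gja1 82.7, Gjb6 35.3, Gabrg1 14.7 and Dbx2 9.92, which were all called higher in Aldh1l1-NuTRAP. The remaining 4 were Cox6a2 at 2.8 CPM and Lhx2 at 24.6 CPM, lowest in mouse 155, and Tlr3 at 21.4 CPM and Elf5 at 0.968 CPM, highest in mouse 192. Groups of 3 were not tested, so Aldh1l1-NuTRAP mouse 290 is described only by the values given above.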

How the results depend on the processing

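The counts of 4188 genes higher in Aldh1l1-NuTRAP and 4530 higher in Cx3cr1-NuTRAP stayed within 1.5 times under every alternative run. Leaving out 1 library gave 3936 to 4468 and 3886 to 4538 (550 to 644 and 356 to 413 over 5-fold). DESeq2 gave 4538 and 4474, and all 29 libraries in 1 fit 4695 and 5284. The 387 genes over 5-fold higher in Cx3cr1-NuTRAP became 241 when the count filter was raised to 100 and 616 without it, since fewer or more genes of low count were tested. Relative to the negative fractions, 3537 and 4151 genes were called with no replicate block and 3745 and 4317 with the mouse as a replicate block. Pax8 changed sign at 0.00 and 0.02 (log2) in these; the cause was not tested. In the same comparison the log2 difference of Nfkbia was 0.95 without the block, of Tlr2 -1.66, of Pax2 -1.16, of Aqp4 3.75, of Cx3cr1 -5.83, of Cbr2 -3.50, of Cox8b 4.44, of Gabra6 -1.45, of Itpkb 3.33, of Traf1 3.04, of Rorb 2.23, of Elf5 3.95, of Lyz2 -5.69 and of Cd74 -3.72, each over 1.5 times from the direct comparison, as were Aldoc at 3.33 and Tnfrsf1b at -5.08 with the block, and genes with few or no astrocyte counts. Calls of Stbd1, Haao and Pgls were lost in one or both, those of Gabra6 and Phka2 without the libraries with high Xist. Counts of the lists with at least 5 called genes that moved over 1.5 times, beside those given above, were for genes higher in Aldh1l1-NuTRAP 21 second messenger, 8 haematopoietic kinase and 10 nuclear receptor genes with total counts and 25 innate and NF-kappaB genes without the libraries with high Xist. For genes higher in Cx3cr1-NuTRAP they were 10 and 11 glutathione genes in these 2 settings, 5 glycolysis, 7 chemokine, complement and lipid receptor, 24 innate recognition receptor and 7 integrin genes with the filter at 100 counts, 22 chemokine, complement and lipid receptor genes with no filter, and 5 nuclear receptor genes relative to the negative fractions, with and without the block, and without mouse 210. At 3 Aldh1l1-NuTRAP libraries of which 1 differs with gene length, small differences of short or long genes are uncertain. So is the size of the fold for genes of few astrocyte counts, and a gene with no count in that line has only a lower bound.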
